A study of Mus musculus with 4 samples.

Results

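Long noncoding RNAs (lncRNAs) are long transcripts that are not known to encode a protein, many of them spliced and processed much like messenger RNA. The 7 described here, Gm42047, Neat1, Malat1, Gas5, Pvt1, Meg3 and H19, were chosen by gene name from the 56748 genes of the deposited count table. The list was drawn up with the genotype difference of Gm42047 already known, so the differences between genotypes given below for the 7 genes are a description and carry no test. Of the 7 genes, 6 had enough counts to enter the fit with 16094 genes, and H19 did not.

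RNA from the small intestine (SI) was sequenced at 1 day post 12 Gy total-body irradiation (TBI) from a γ-source, as 2 libraries of p53+/+ and 2 libraries of p53-/- mice. The labels give the libraries as replicates and do not say that each came from a separate mouse. The p53+/+ mice were wild-type animals and the p53-/- mice were p53-deficient animals, both from the Jackson Laboratory, and the mice of the study were 8 to 12 weeks old and matched for age and gender. All mice were irradiated, so the comparison is between irradiated genotypes and has no unirradiated reference. The p53-/- mice lack p53 in every tissue, and whole SI holds epithelium, muscle, stroma, blood vessels and lymphoid tissue. The column numbers of the deposited table are used as names, libraries 7 and 8 for p53+/+ and libraries 9 and 10 for p53-/-.

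p53 is a transcription factor that is stabilised after DNA damage and activates genes for cell cycle arrest, cell death and repair, lncRNA genes among them. Neat1 is the architectural RNA of paraspeckles, nuclear bodies that hold RNA-binding proteins, and Malat1 is a nuclear RNA of the neighbouring speckles, where splicing factors are stored. Gas5 carries small nucleolar RNAs in its introns, Pvt1 lies beside the oncogene Myc, and Meg3 and H19 are imprinted RNAs expressed from the maternal allele. Gm42047 is a gene model without an assigned function.

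The libraries held 15005479 to 22173164 counts, and levels are given as CPM, counts relative to library sizes scaled by TMM, with mean ± SD within a genotype (n = 2). Trp53, the targeted gene, had 933 and 726 counts in p53+/+ and 452 and 453 in p53-/-, or 57.7 and 47.1 CPM against 19.8 and 22.5 CPM. The table counts reads over the whole gene and does not show which exons they came from. Summed over 12 epithelial markers, the level was 33372 and 31524 CPM in p53+/+ and 28744 and 26318 CPM in p53-/-, with none of the 12 at 0 in all libraries. The sum is carried by abundant genes and covers members that differed in opposite directions, from Alpi, an enterocyte phosphatase, with a log2 fold change of -0.93, to Olfm4, a crypt stem cell marker, with one of 3.97. Library 10 stood apart. It held 45213 CPM of the 18S ribosomal RNA row against 3190 to 8385 CPM in the other libraries, 491 CPM of 8 B cell markers against 1.11 to 23.3 CPM, and 588 counts of Xist against 0 to 4. The Y-linked gene Ddx3y had 501, 482, 739 and 615 counts in libraries 7 to 10, so library 10 held Xist and Y-linked transcripts together. Values without library 10 are therefore given beside the results of the tested members, for Gas5 within a range. They are not given for every other gene named.

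The annotation used here, GENCODE M21 on GRCm38, lists 2 transcripts of Gm42047 (ENSMUSG00000110631), a long intergenic RNA on the plus strand of chromosome 8. Gm42047-201 has 1862 bases and Gm42047-202 has 4988 bases in 4 exons. A 60-base stretch near the 3′ end of Gm42047-202 is shown because it holds 2 exact copies of the p53 decamer, the consensus that p53 binds in pairs, side by side with no base between them. The consensus reads the same on both strands. The same stretch of Gm48362-201, a transcript from chromosome 9, is shown under it, and the capitals mark the decamer pair.
Gm42047-202, bases 4728 to 4787: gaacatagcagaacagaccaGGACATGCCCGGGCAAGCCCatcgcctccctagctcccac
Gm48362-201, bases 2944 to 3003: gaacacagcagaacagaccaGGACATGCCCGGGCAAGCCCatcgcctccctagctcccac
The pair starts at base 4748 of Gm42047-202, which is within the last 300 bases of the transcript. Of 131058 annotated transcripts with at least that length, 8 (0.0061%) held such a pair in their last 300 bases, while 12129 (9.25%) held a single decamer. Besides Gm42047-202 and Gm48362-201, the 8 included Gm43549-201 and Gm47939-201. These named transcripts carry the pair in near-identical sequence, so the 8 are not independent occurrences. No transcript of Neat1, Malat1, Gas5, Pvt1, Meg3 or H19 held a pair anywhere along its length, and introns were not searched. The share of all transcripts with a pair anywhere along their length was not counted, so the 0.0061% holds for the end window only. RefSeq promoters of 300 bases around the start, on GRCm38.p6, were at hand for Malat1 (1), Gas5 (2) and Meg3 (2), and none of these held a decamer, against 8.36% of 32851 promoters. A match describes the letters in a window and does not show that p53 binds there.

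Gm42047 shares long stretches of its sequence with other genes. By BLAST, 6 other genes aligned to it over at least 300 bases at 95% identity or more. Gm48362 matched over 3209 bases at 98.4% identity, Gm47939 over 2510 bases at 99.1%, Gm43549 over 2508 bases at 99.1% and Gm47761 over 1115 bases at 99.3%. Such families of near-identical stretches are typical of dispersed repeats, endogenous retroviruses among them. The longest reading frame of Gm42047-202 from a start codon ran for 393 codons, and 0.407% of 18930 annotated lncRNA transcripts had one at least as long. The longest frames of the other 6 RNAs ran from 58 codons in Gas5 to 186 in Meg3. Reads from the shared stretches could have been assigned to any of the copies, so the counts of Gm42047 are uncertain in that respect, and how the counting treated reads with several matches is not given in the sources used here. The rows of the 6 other genes held almost no reads. Gm43549 had 2, 1, 0 and 0 counts in libraries 7 to 10, and the other 5 had 0 in every library.

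**Figure D1:**
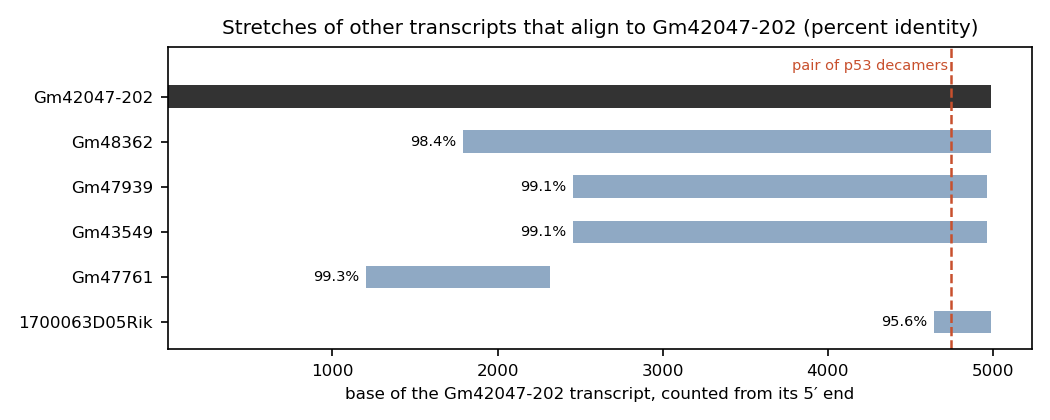
Stretches of other annotated transcripts that aligned to Gm42047-202, drawn along its bases from the 5′ end, with the percent identity beside each bar. The dashed line marks the p53 decamer pair at base 4748, which lies inside the stretches shared with Gm48362, Gm47939, Gm43549 and 1700063D05Rik. The sixth gene, Gm46349, aligned to Gm42047-201 and is not drawn.

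The libraries were made from RNA caught on poly-T beads, so the 3′ ends of the transcripts bear on what was measured. The last 50 bases are shown for Gm42047-202 and Malat1-201 and for the short and long forms of Neat1, Neat1-202 and Neat1-201. Capitals mark the polyadenylation signal, AATAAA or ATTAAA.
Gm42047-202, bases 4939 to 4988: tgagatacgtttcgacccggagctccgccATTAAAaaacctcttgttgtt
Malat1-201, bases 6934 to 6983: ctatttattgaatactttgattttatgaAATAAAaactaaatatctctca
Neat1-202, bases 2955 to 3004: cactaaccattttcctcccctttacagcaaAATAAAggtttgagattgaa
Neat1-201, bases 20722 to 20771: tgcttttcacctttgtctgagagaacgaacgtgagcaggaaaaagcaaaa
The signal was present in Gm42047-202, Malat1-201 and the short form of Neat1, and in the longest transcripts of Gas5, Pvt1, Meg3 and H19. It was not found in the last 50 bases of the long form of Neat1. Of 141672 annotated transcripts of at least that length, 33.8% held one of these signals in their last 50 bases. The mature ends of long Neat1 and of Malat1 are known to be cut by RNase P and capped by a triple helix in place of a poly-A tail. The counts are per gene, and the forms of Neat1 cannot be told apart in them.

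Gm42047 was abundant in the irradiated p53+/+ SI and close to absent in the p53-/- SI. It had 750 and 1078 counts in libraries 7 and 8 and 11 and 7 counts in libraries 9 and 10. These were 46.4 and 69.9 CPM in p53+/+ and 0.482 and 0.348 CPM in p53-/-. Both p53-/- libraries lay far below both p53+/+ libraries, and the gap between genotypes was much wider than the spread within either. The mean was 58.2 ± 16.6 CPM in p53+/+ and 0.415 ± 0.0947 CPM in p53-/- (SD, n = 2), 140-fold lower in p53-/-. The fitted log2 fold change was -7.10 (SE 0.366). Among 16094 genes tested it was the eighth largest fall and had the sixth smallest p-value. The list was drawn up with this difference known. These ranks, and the calls of Gm42047 given below, are therefore a description and not a test.

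Gm42047 was the only lncRNA past the threshold, an adjusted p of 0.05 in the quasi-likelihood test of edgeR, adjusted over all genes tested by the Benjamini-Hochberg method. Of all genes tested, 79 (0.491%) passed, 48 (0.298%) higher and 31 (0.193%) lower in p53-/-. Of 952 lncRNA genes tested, 1 (0.105%) passed. No lncRNA was higher past the threshold in edgeR. At an unadjusted p under 0.05 in that test lay 109 of the 952 lncRNAs, 74 higher and 35 lower. Over all 16094 genes tested it was 2892, a larger share. DESeq2 called 25 lncRNAs higher and 6 lower, of 5489 with any count. Of all 27841 genes with any count, it called 816 higher and 565 lower. Just outside the threshold, and named after their values were seen, lay AU020206, with 158 and 184 counts in p53+/+ and 947 and 1268 in p53-/-, and Plet1os, with 1 count in both p53+/+ libraries and 100 and 49 in p53-/-. Without library 10, no gene of any kind passed the threshold, while the log2 fold change of Gm42047 was -6.85.

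The 5 tested genes with the profile nearest to that of Gm42047 over the 4 libraries were Eda2r, Cfd, Phlda3, Car3 and Nlrp1b. Likeness was measured as the Euclidean distance between log2 CPM values (prior count 2), each gene centred on its own mean, and was 0.57, 0.66, 1.23, 1.24 and 1.88. Eda2r, a receptor of the TNF receptor family and a known p53 target, had 325 and 279 counts in p53+/+ and 3 and 1 in p53-/-. Phlda3, a p53 target that restrains Akt, had 1410 and 1416 counts in p53+/+ and 44 and 31 in p53-/-. Nlrp1b, an inflammasome sensor, had 328 and 313 counts in p53+/+ and 8 and 13 in p53-/-. These genes share the 4 libraries and the contrast with Gm42047, so the likeness is a description of shape.

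**Figure D2:**
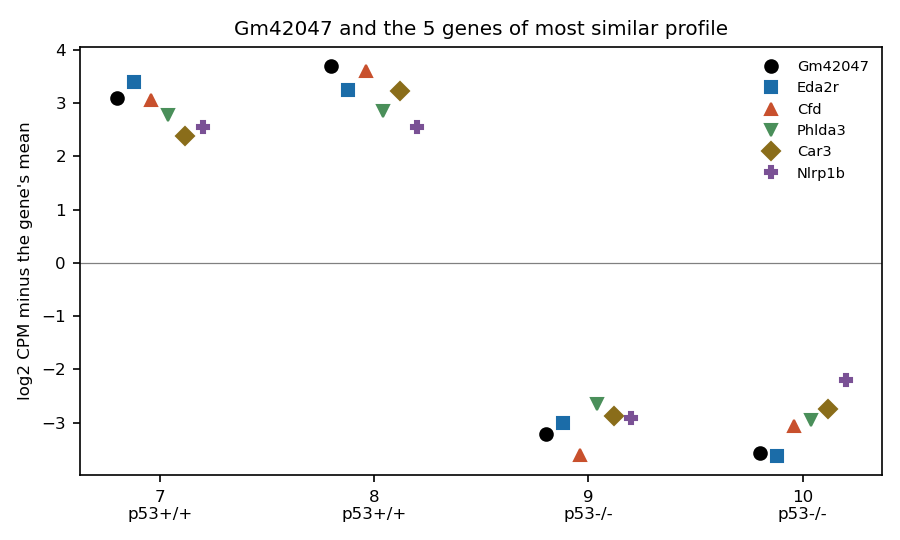
Log2 CPM (prior count 2) of Gm42047 and its 5 nearest genes in each library, each gene centred on its mean over the 4 libraries. Each symbol is 1 library. All 6 genes lie above 2 in both p53+/+ libraries and below -2 in both p53-/- libraries.

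Of these, Cfd and Car3 are genes of fat cells. Cfd, which encodes adipsin, had 175 and 244 counts in p53+/+ and 0 and 1 in p53-/-, and Car3, a carbonic anhydrase, had 198 and 342 counts in p53+/+ and 5 in each p53-/- library. All 7 tested adipocyte markers of 8 were lower in p53-/-, with genotypes that did not overlap, and 2 of them, Cfd and Car3, already named above as near to Gm42047, passed the threshold. Over all genes tested, 50.7% had genotypes that did not overlap and 0.491% passed. The summed level of the 8 markers was 155 and 108 CPM in p53+/+ and 22.5 and 19.8 CPM in p53-/-. Plin1, which coats lipid droplets, had 33 and 51 counts in p53+/+ and 0 in both p53-/- libraries. The part of fat tissue in the level of Gm42047 was not tested. In bulk tissue, fewer cells of a type and less RNA per cell cannot be told apart.

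The nearest tested genes on either side of Gm42047 did not show a difference of that size. Klhdc4, on the opposite strand and 3.68 kb away, was at 34.7 and 25.8 CPM in p53+/+ and at 28.1 and 27.7 CPM in p53-/-, with genotypes that overlapped. Its log2 fold change was -0.12 (SE 0.211, adjusted p = 0.828 from the same edgeR test). Slc7a5, an amino acid transporter 40.0 kb away on the other side, was at 22.5 and 11.9 CPM in p53+/+ and at 30.8 and 28.7 CPM in p53-/-, a log2 fold change of 0.79 (SE 0.334, adjusted p = 0.300). The genotypes of Slc7a5 did not overlap. The next tested genes outward, Zcchc14 and Banp, had log2 fold changes of -0.33 (SE 0.161) and 0.49 (SE 0.256). Their genotypes did not overlap either, and neither gene passed the threshold. Distances are from the M21 annotation.

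Neat1 (ENSMUSG00000092274) was the lncRNA with the highest mean CPM of the 952 tested. It was at 378 and 335 CPM in p53+/+ and at 181 and 192 CPM in p53-/-. Both p53-/- libraries were below both p53+/+ libraries, and the libraries of a genotype lay close together. The mean was 357 ± 30.6 CPM in p53+/+ and 186 ± 7.94 CPM in p53-/- (SD, n = 2), 1.92-fold lower. The log2 fold change was -0.94 (SE 0.188), short of the threshold in edgeR and past it in DESeq2, in edgeR's likelihood ratio test and with no filter on low counts. It was -0.93 without library 10, and between -1.03 and -0.84 with any 1 library left out.

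Neat1 and its neighbour Malat1 lie 22.0 kb apart on the minus strand of chromosome 19. Frmd8, a FERM-domain protein gene 4.22 kb from Neat1 on the same strand, had a log2 fold change of -0.76 (SE 0.158, adjusted p = 0.112 from the same edgeR test). Slc25a45, a mitochondrial carrier gene on the opposite strand, had a log2 fold change of -1.62 (SE 0.372, adjusted p = 0.129).

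The proteins of paraspeckles were measured as a list of 14 genes, all tested. None passed the threshold in edgeR, none had an unadjusted p under 0.05 and none was called by DESeq2. The median log2 fold change was 0.10, against -0.01 for all genes tested and 0.16 for the lncRNAs tested. Hnrnpk and Hnrnpm, the most abundant of the list, had log2 fold changes of 0.07 and 0.11. Taf15, an RNA-binding protein, and Rbm14, which paraspeckles need to form, had the largest differences, -0.31 and 0.28.

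Malat1 (ENSMUSG00000092341) was second in mean CPM among the lncRNAs and differed in the other direction. It was at 92.0 and 146 CPM in p53+/+ and at 160 and 449 CPM in p53-/-. The genotypes did not overlap, but library 9 lay close to library 8 and most of the distance came from library 10. The mean was 119 ± 38.0 CPM in p53+/+ and 305 ± 204 CPM in p53-/- (SD, n = 2), 2.56-fold higher, and the log2 fold change was 1.36 (SE 0.522). Without library 10 it was 0.48. It did not pass the threshold in edgeR, and it did in DESeq2 and with no filter on low counts.

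The level of Malat1 followed the same order over the libraries as the 18S ribosomal RNA row, Rn18s-rs5, which took 0.296%, 0.473%, 0.863% and 4.59% of the counts of libraries 7 to 10. Ribosomal RNA is largely removed by poly-T selection. With the ribosomal rows left out of the counts, the log2 fold change of Malat1 was 1.39. Leaving them out changes the library sizes and their scaling, and not the counts of Malat1. Markers of lymphocytes followed the same order. The summed level of 8 B cell markers was 1.11 and 1.82 CPM in p53+/+ and 23.3 and 491 CPM in p53-/-, and that of 10 T cell markers was 8.23 and 15.8 CPM against 73.3 and 147 CPM. The part of ribosomal RNA or of lymphocytes in the level of Malat1 was not tested. Neat1 did not follow that order. Malat1 has an antisense gene model, Gm37376, over 6.49% of its exon bases, whose row held 0 counts in all libraries. The labels do not say whether the libraries kept strand, so sense and antisense reads cannot be told apart.

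**Figure D3:**
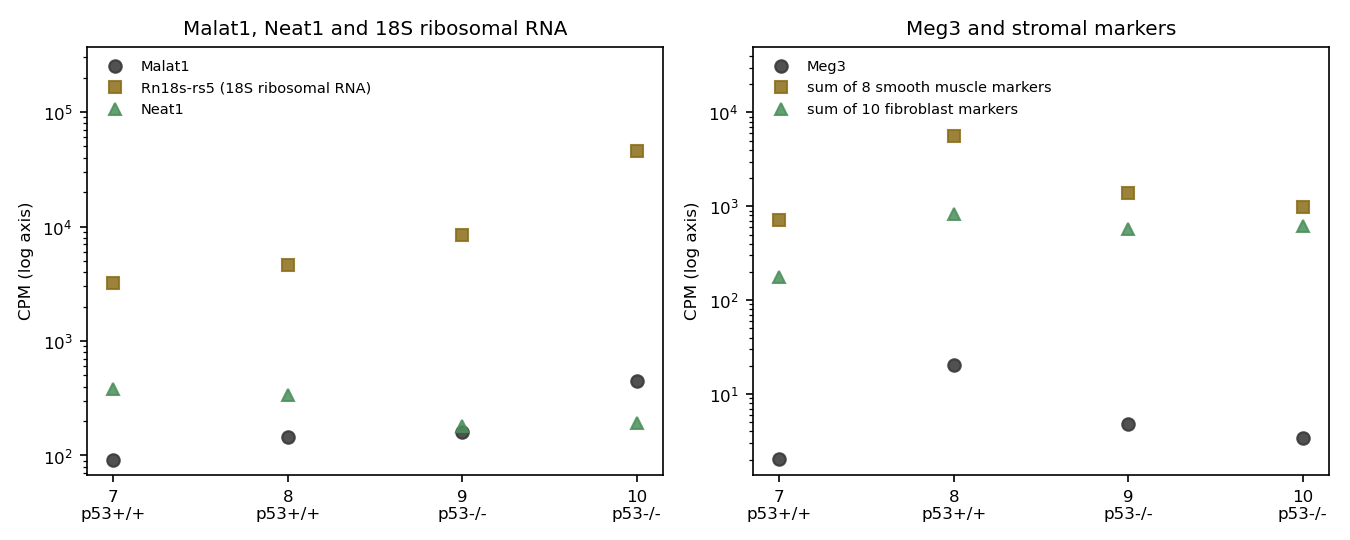
Left, CPM on a log axis of Malat1, Neat1 and the 18S ribosomal RNA row in each library. Malat1 and 18S are lowest in library 7 and highest in library 10. Right, CPM on a log axis of Meg3 and of the summed markers of smooth muscle (8 genes) and of fibroblasts (10 genes). All 3 are lowest in library 7 and highest in library 8. Each symbol is 1 library.

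The nuclear speckle and splicing list, the protein surroundings of Malat1, held 14 genes, all tested. None passed the threshold in edgeR, none had an unadjusted p under 0.05 and none was called by DESeq2. Their median log2 fold change was 0.09. Son and Srrm2, large scaffold proteins that hold speckles together and the most abundant of the list, had log2 fold changes of -0.0013 and 0.17. The splicing factors Srsf7 and Srsf1 had the largest differences, 0.36 and 0.27.

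Gas5 (ENSMUSG00000053332) varied least of the 7 RNAs. It was at 31.5 and 33.0 CPM in p53+/+ and at 35.1 and 36.3 CPM in p53-/-. The genotypes did not overlap, and all 4 values lay within a narrow range. The means were 32.2 ± 1.03 and 35.7 ± 0.852 CPM (SD, n = 2), and the log2 fold change was 0.15 (SE 0.159). With any 1 library left out it ranged from 0.12 to 0.18. It did not pass the threshold in any of the 15 alternative settings.

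Gas5 hosts small nucleolar RNAs, which guide the chemical modification of ribosomal RNA. The rows of 9 such RNAs inside Gas5 held 0 counts in every library. All 9 lie on annotated exon bases of Gas5 on the same strand, and the libraries were selected on poly-T beads. How reads that overlap more than 1 gene were counted is not given in the sources used here. The 0 counts therefore do not show that these RNAs were absent. Other host genes of small nucleolar RNAs were measured on 16 tested rows. None passed the threshold in edgeR, none had an unadjusted p under 0.05 and none was called by DESeq2. Their median log2 fold change was 0.05. Zfas1 and Snhg1, the most abundant of them, had log2 fold changes of -0.10 and 0.36. Snhg1 was at 12.0 and 12.1 CPM in p53+/+ and at 12.7 and 18.3 CPM in p53-/-, with most of the difference from library 10. Snhg11 and Snhg15 had the largest, -1.73 and -0.74. Snhg11 had 6 and 95 counts in p53+/+ and passed the threshold only when library 7 was left out, among the 4 libraries left out in turn.

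Pvt1 (ENSMUSG00000097039) was low. It had 55 and 37 counts in p53+/+ and 33 and 41 counts in p53-/-, or 3.40 and 2.40 CPM against 1.45 and 2.04 CPM. Both p53-/- libraries were below both p53+/+ libraries by less than the spread within p53+/+. The means were 2.90 ± 0.709 and 1.74 ± 0.419 CPM (SD, n = 2), and the log2 fold change was -0.74 (SE 0.486), short of the threshold in all 15 alternative settings and -0.94 without library 10. Myc, its neighbour 47.6 kb away and a driver of proliferation, was at 49.1 and 36.8 CPM in p53+/+ and at 43.7 and 50.7 CPM in p53-/-. The genotypes of Myc overlapped, with a log2 fold change of 0.14 (SE 0.201, adjusted p = 0.788 from the same edgeR test).

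On the other side of Pvt1, the nearest tested genes lay over 1446 kb away and belong to the gasdermin C cluster. Gsdmc3, 1480 kb away, was the only one of 25 tested neighbours of the 7 RNAs past the threshold, against 0.491% of all genes. Its counts were 3 in both p53+/+ libraries and 111 and 106 in p53-/-, and its log2 fold change was 4.69 (SE 0.531, adjusted p = 0.0468 from the same edgeR test). Gsdmc2, the nearer gene, had 2 and 6 counts in p53+/+ and 313 and 163 in p53-/-. Its log2 fold change was 5.38 (SE 0.675), just short of the threshold (adjusted p = 0.0541 from the same edgeR test). Members of this cluster are near-identical paralogs, and their reads could have been split among them.

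Meg3 (ENSMUSG00000021268) varied more within p53+/+ than between genotypes. It had 33 and 313 counts in libraries 7 and 8 and 109 and 69 counts in libraries 9 and 10. These were 2.04 and 20.3 CPM in p53+/+ and 4.78 and 3.43 CPM in p53-/-. Library 8 was 9.94-fold above library 7 of the same genotype, and both p53-/- libraries lay between them. The means were 11.2 ± 12.9 and 4.10 ± 0.951 CPM (SD, n = 2), and the log2 fold change was -1.44 (SE 0.990). It turned to 1.00 without library 8, and was -2.29 and past the threshold without library 7. It was -1.20 without library 10.

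Markers of smooth muscle had the same order over the libraries as Meg3, and fibroblast markers shared its lowest and highest library, 7 and 8, but not the order of libraries 9 and 10. The summed level of 8 smooth muscle markers was 721 and 5579 CPM in p53+/+ and 1395 and 971 CPM in p53-/-, and that of 10 fibroblast markers was 177 and 823 CPM against 577 and 616 CPM. All 8 smooth muscle markers had negative log2 fold changes, as Meg3 did, while 7 of the 9 tested fibroblast markers had positive ones. Twist2, the fibroblast marker that was not tested, was at 0 in both p53+/+ libraries. The part of muscle or stroma in the level of Meg3 was not tested.

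Meg3 lies in an imprinted domain with Rian, a maternally expressed lncRNA 32.2 kb away, and Dlk1, a paternally expressed gene. Rian had 19 and 104 counts in p53+/+ and 54 and 31 in p53-/-, with library 8 highest and library 7 lowest as for Meg3. Its log2 fold change was -1.01 (SE 0.855, adjusted p = 0.609 from the same edgeR test). Dlk1 had 3 to 5 counts in each library and was not tested. Of 23 imprinted genes listed, 16 were tested. None passed the threshold in edgeR, 1 (Nnat, lower) had an unadjusted p under 0.05, and DESeq2 called none. The median log2 fold change was -0.36. It changed sign to 0.21 without library 8 and was -0.66 without library 7. Igf2r and Gnas, the most abundant, had log2 fold changes of -0.40 and -0.18. Kcnq1ot1, a lncRNA that silences its imprinted domain, and Ndn, which encodes necdin, had the largest, 1.84 and -1.75. Kcnq1ot1 had 8 counts in both p53+/+ libraries and 19 and 57 in p53-/-, with most of the difference from library 10. Ndn had 28 and 271 counts in libraries 7 and 8, the order of Meg3, and passed the threshold when library 7 was left out.

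H19 (ENSMUSG00000000031), an imprinted RNA that is abundant in the fetus and holds miR-675 in its first exon, was close to absent in all libraries. It had 0 and 12 counts in p53+/+ and 6 in each p53-/- library, or 0 and 0.779 CPM against 0.263 and 0.298 CPM. The genotypes overlapped. The row of Mir675 held 0 counts in all libraries. Mir675 lies on exon bases of H19, so its row has the same limit as the rows inside Gas5. Igf2, which lies beside H19 and is expressed from the paternal allele, had 0 and 4 counts in each genotype. A difference of H19 between genotypes was not detectable at this depth.

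**Figure D4:**
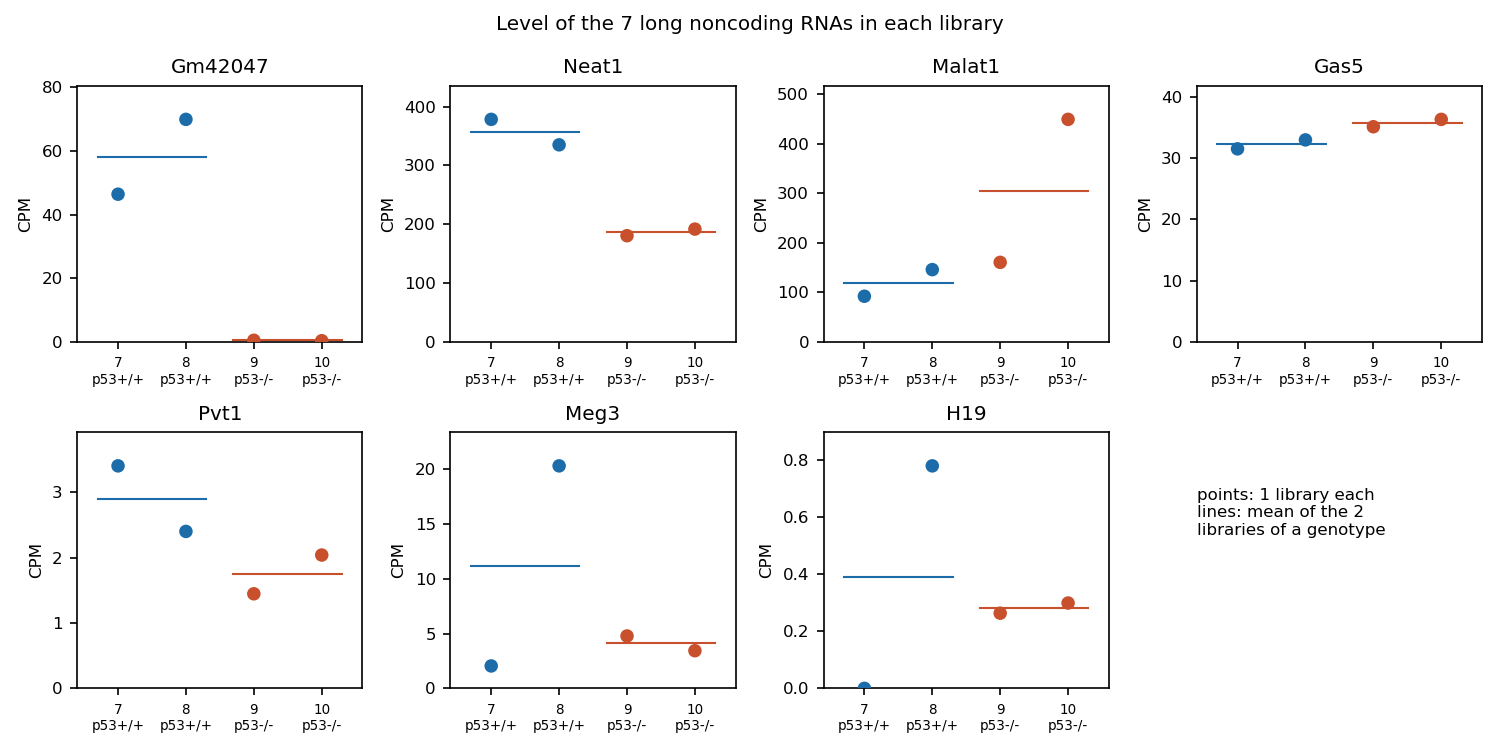
CPM of the 7 lncRNAs in each library, on linear axes that start at 0. Points are single libraries, blue for p53+/+ and red for p53-/-, and lines are the means of the 2 libraries of a genotype. Gm42047 and Neat1 are lower in both p53-/- libraries, Malat1 is highest in library 10, and Meg3 and H19 are highest in library 8.

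Of the 6 tested RNAs, 5 had genotypes that did not overlap, 2 with p53-/- above and 3 with p53-/- below. Over all genes tested the genotypes did not overlap in 50.7%, since 2 libraries against 2 separate easily. The count of members past the threshold was 1, Gm42047, against 0.491% over all genes. The log2 fold changes of the members ranged from -7.10 to 1.36 with a median of -0.84, so the 6 RNAs did not move together.

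**Figure D5:**
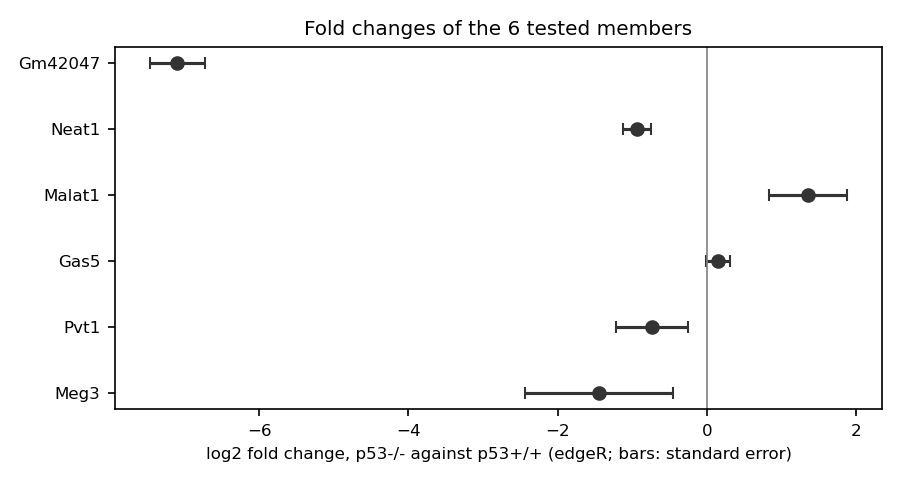
Fitted log2 fold change of the 6 tested lncRNAs, p53-/- against p53+/+, with bars for the standard error. The value of Gm42047, -7.10, lies far from the others, which lie between -1.44 and 1.36.

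Levels of different genes were compared as CPM per kb of annotated exon. In p53+/+, Neat1 (18.2 and 16.1) and Malat1 (13.2 and 20.9) were the highest and overlapped. Gm42047 (8.22 and 12.4) and Gas5 (8.38 and 8.77) followed, also overlapping. Meg3, Pvt1 and H19 were at 1.12 CPM per kb or less in every library. In p53-/-, Malat1 (23.0 and 64.3) was the highest, and Gas5 (9.34 and 9.66) and Neat1 (8.69 and 9.23) came next, close to each other and without overlap. Gm42047 was then the lowest, at 0.0854 and 0.0617 CPM per kb, below H19 at 0.107 and 0.121. The value of Neat1 is divided by the 20.8 kb of its long form and would be higher for the short form. The exon length pools all annotated transcripts of a gene. For Gas5 it is 3760 bases, while its 25 transcripts have 346 to 2556 bases. The value of Gas5 would be higher for any 1 of them, so its place in this order depends on the annotation.

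Other lncRNAs linked to p53 were measured as a list of 7, of which 5 were tested. None passed the threshold in edgeR, 1 (Dleu2) had an unadjusted p under 0.05, and DESeq2 called none. The median log2 fold change was 0.22. Norad, which protects genome stability by binding Pumilio proteins, was at 119 and 122 CPM in p53+/+ and at 118 and 107 CPM in p53-/-, a log2 fold change of -0.10. Tug1 had a log2 fold change of -0.06. Dleu2, the host of miR-15a and miR-16-1, had the largest difference, 1.04 (SE 0.362, adjusted p = 0.232 from the same edgeR test), and Mir17hg, the host of the miR-17-92 cluster, had one of 0.30. Trp53cor1, also called lincRNA-p21, had 3 counts in both p53+/+ libraries and 0 and 3 in p53-/-, and was not tested. Lncpint, also not tested, had 3 and 5 counts in p53+/+ and 8 and 24 in p53-/-.

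A list of 18 other well studied lncRNAs had 8 members with enough counts to be tested. None passed the threshold in edgeR, none had an unadjusted p under 0.05 and none was called by DESeq2. The median log2 fold change was 0.45. It changed sign to -0.29 without library 7 and was 1.26 without library 8. Oip5os1 and Firre, the most abundant, had log2 fold changes of -0.31 and -0.05, and Jpx and Dnm3os had the largest, 1.27 and 0.96. Jpx had 9 and 20 counts in p53+/+ and 38 and 57 in p53-/-, and Dnm3os had 1 and 13 against 21 and 17. Hotair, Hottip and Tsix were at 0 in all libraries. Xist, which coats the inactive X chromosome, passed the threshold when library 9 was left out, from the 588 counts of library 10 alone.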

How the data were processed

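RNA of the SI was extracted with RNeasy kits and selected on poly-T beads, and sequencing and analysis were performed by Novogene. The deposited table holds raw counts of reads per gene that the authors made without normalization. The submitters' processing notes name fastp, HISAT2 2.0.5, featureCounts 1.5.0-p3 and DESeq2 1.20.0, while the genome build and the strand of the counting are not given in the sources used here. The column names show genotype only, not which labelled replicate they hold.

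Genes with low counts were removed by filterByExpr and library sizes scaled by TMM. The 16094 remaining genes were tested, two-sided, with edgeR 4.0.16 (quasi-likelihood test, R 4.3.3), without a covariate, with Benjamini-Hochberg adjustment over all of them. The SE of a log2 fold change is its size divided by the square root of F. With 2 libraries per genotype the prior degrees of freedom were 3.45. The test was first tested on simulated data. The chi-square per degree of freedom between the 2 libraries was 48.0 for p53+/+ and 69.5 for p53-/-. Nothing in the labels says that the libraries came from separate mice, but the study's methods describe every data point as a biological replicate. P-values measure the spread between these libraries.

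GENCODE M21 matched 91.9% of the gene identifiers and gave exon lengths, neighbours, transcripts and the class of lncRNA, from which 92 genes with a RefSeq protein-coding symbol were left out. Motifs were exact matches, and transcripts were aligned with megablast (BLAST 2.17.0). The members and the lists were chosen with earlier results of these data known. Named genes are the members, the genes past the threshold, the 2 most abundant and the 2 of largest difference of each list, the neighbours Myc, Igf2, Dlk1 and Rian and those past the threshold, and the 5 genes nearest to Gm42047. Other neighbours (Klhdc4, Slc7a5, Frmd8, Slc25a45), AU020206, Plet1os, Plin1, Twist2, Ddx3y, Xist, Alpi, Olfm4, Nnat, Hotair, Hottip, Tsix and Trp53cor1 were named after their values were seen. Some neighbours are not reported here. Counting error only is covered by statements on depth.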

Additional observations from a re-analysis of the deposited data

How the results depend on the processing

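Counts of genes past the threshold moved more than the values of the members. Against 48 higher and 31 lower genes, library size only gave 26 and 20, upper-quartile factors 29 and 20, DESeq2 1.42.0 816 and 565, edgeR's likelihood ratio test 833 and 462, no filter 1433 and 761, and at least 10 counts in every library 24 and 18. With 1 library left out in turn the counts ranged from 0 to 680 higher and from 0 to 344 lower, both 0 without library 10. Against 0 lncRNAs higher and 1 lower, DESeq2 gave 25 and 6, the likelihood ratio test 40 and 10, no filter 58 and 13, removal of immunoglobulin and T cell receptor segments 1 higher, at least 10 counts in every library 0 lower, where Gm42047 has no value, and leaving out a library 0 to 9 higher and 0 to 7 lower.

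Gm42047 kept its direction in 14 of 14 alternatives, from -7.36 to -6.78 on the log2 scale with 1 library left out, and was past the threshold in 13. The exception was the setting without p53-/- library 10. Neat1 passed the threshold in DESeq2 (-0.96), the likelihood ratio test (-0.94) and with no filter (-0.90), and Malat1 in DESeq2 (1.33) and with no filter (1.39), each with its direction kept in 15 of 15 alternatives. Meg3 passed with no filter (-1.42) and without p53+/+ library 7 (-2.29), and ranged from -2.29 to 1.00 with 1 library left out, turning to 1.00 without p53+/+ library 8. Gas5 and Pvt1 kept their direction and stayed short of the threshold in all 15. The counts of imprinted genes, snoRNA host genes and other studied lncRNAs past the threshold, 0, were 0 to 1 with 1 library left out. The cause of these differences was not tested. RLE factors, the 50 most abundant genes left out and thinning to the smallest total moved no call of a member, nor did leaving out the ribosomal rows, an alternative chosen after seeing the data.

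No paired analysis was possible because the columns of the table carry no replicate number that the labels share. Depth limits H19, Dlk1, Igf2 and Trp53cor1, which had 12 counts or fewer in every library.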
